A study of Saccharomyces cerevisiae with 24 samples.

Results

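The genes of copper uptake and delivery in budding yeast were described across both kinds of culture of the study and across the alleles of its strains. Members were chosen by name: the copper transporter genes CTR1, CTR2 and CTR3, the transcription factor genes MAC1 and CUP2, the secretory pathway copper pump gene CCC2, the copper chaperone gene ATX1, and SOD1, which encodes a copper enzyme. Of these 8 genes, 6 were among the 4442 gene pairs measured, and MAC1 and ATX1 are not analysed here.

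The hybrid was the a/alpha diploid WL201, a cross of BY4741 with RM11-1alpha (12 libraries). Each of its cells therefore carried 1 BY and 1 RM allele of each gene present in both parents. In the co-culture, BY4741 and RM11-1a grew in 1 flask as haploids of the MAT-a mating type (12 libraries), so the BY and RM alleles sat in different cells. BY4741 is a laboratory strain and RM11 a vineyard isolate, and both groups grew at 30 °C with shaking at 250 rpm from an OD600 of 0.1 to an OD600 of 1, in 4 technical-replicate cultures per group. The study asked how expression differs between the strains in cis and in trans. The libraries were not tied to the cultures, so p-values cover only how far libraries differ, which may be technical. The groups differ in ploidy, in mating type and in the RM strain (RM11-1alpha as parent of the hybrid, RM11-1a in the co-culture). They also differ in the cells the alleles share, and these differences cannot be told apart.

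Copper enters yeast cells as the reduced ion, made by surface reductases such as Fre1 and Fre7 and carried across the plasma membrane by Ctr1 and Ctr3. Ctr2 is known to release copper from the vacuole. Inside the cell, Atx1 hands copper to the Ccc2 pump for loading of the iron oxidase Fet3, and the superoxide dismutase Sod1 receives copper from its own chaperone Ccs1. Mac1 activates CTR1, CTR3, FRE1 and FRE7 when copper is scarce, and Cup2 (also called Ace1) activates the metallothionein gene CUP1 and SOD1 when copper is abundant.

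The libraries held 165503 to 232428 reads in the hybrid and 199838 to 227175 in the co-culture, counted at positions where BY and RM differ. RM reads were 49.7% of all reads in the hybrid, against 54.8% in the co-culture. In the co-culture, fewer cells of a strain and less RNA per cell cannot be told apart, and scaling of each allele column sets the typical gene pair to an RM-over-BY ratio of 1. The a-cell gene STE2 had 141 reads in all hybrid libraries together, against 18145 in those of the co-culture, with reads of both alleles in each, and the alpha-cell gene STE3 had 3 and 3. MET17, which is deleted in BY4741, had no BY read in either group, and its RM reads numbered 149 in the hybrid, against 206 in the co-culture. Libraries of a group whose counts agree within sampling noise were summed, which left 6 summed libraries per group, and levels below are CPM, the reads of a gene relative to the TMM-scaled library total, with the SD (n = 6). They outnumber the 4 cultures, so some share a culture. Reads were counted only over differing sites, whose number per gene is not known, so levels are not compared between genes.

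The 8 genes lie on 8 chromosomes of the R64 reference assembly (RefSeq), each with 1 coding exon and no overlapping gene. CTR1 (YPR124W) is at chrXVI:786208-787428 on the plus strand, CTR2 (YHR175W) at chrVIII:452872-453441 on the plus strand, CTR3 (YLR411W) at chrXII:947253-947978 on the plus strand and SOD1 (YJR104C) at chrX:622550-623014 on the minus strand. CUP2 (YGL166W) is at chrVII:191129-191806 and CCC2 (YDR270W) at chrIV:1005675-1008689, both on the plus strand. The deposited files give no coordinates, and the build the authors mapped to is not given in the sources used here.

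R64 is the genome of S288C, the strain background of BY4741, and its CTR3 gene has a Ty2 retrotransposon upstream, which is known from laboratory strains to disable CTR3. In R64 the element spans chrXII:941192-947150, 5959 bases with a 332-base repeat at each end. It leaves 102 bases between its end and the CTR3 start codon, and 210 bases between its start and VIP1, the gene on its other side. The bases at its edges are shown because they carry the mark of the insertion, a 5-base repeat (capitals). Each run is on the plus strand of R64, with 15 bases inside and 15 outside the element, at chrXII:941177-941206 and at chrXII:947136-947165.
Left edge of the Ty2 element: aaagagcaacCTTCTtgttggaataaaaat
Right edge of the Ty2 element: tccacattctcttcaCTTCTccgatagact

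The Mac1 motif was searched as TTTGCTC, and in a variant form as TTTGCGC, on both strands. The stretch between VIP1 and the Ty2 element held 2 matches to TTTGCTC, which lie 6184 and 6138 bases before the CTR3 start codon. The element itself and the 102 bases between it and CTR3 held 0 matches to either form. CTR1 held 2 matches, the first 334 and the second 311 bases before its start codon. Both stretches are shown because each holds a pair of matches in opposite directions (capitals), at chrXII:941054-941136 and chrXVI:785844-785933 of R64, plus strand.
Upstream of the Ty2 element at CTR3: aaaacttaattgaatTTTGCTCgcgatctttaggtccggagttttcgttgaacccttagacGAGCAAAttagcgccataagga
Upstream of CTR1: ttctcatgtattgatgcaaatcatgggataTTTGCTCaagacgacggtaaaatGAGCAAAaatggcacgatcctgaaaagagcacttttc

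TTTGCTC was found in the 500 bases before the start codon of 517 of 6025 genes of R64 (8.58%), and TTTGCGC in those of 265 (4.4%). Among the members, CTR1 held TTTGCTC in this window, and ATX1 and SOD1 held TTTGCGC. Of the other listed Mac1 targets, FRE1 held 3 matches to TTTGCTC, IRC7 held 1, and FRE7 held 3 matches to TTTGCGC, of which 2 overlap each other on opposite strands. The Cup2 motif, searched as TTTGCTG, was found before CUP2 itself and before 11% of all genes. It was not found in this window before SOD1, a listed Cup2 target. The motif of Aft1, the activator of iron uptake genes, was searched as TGCACCC and found 2 times before CCC2 and once before ATX1, against 2.32% of all genes. A match is a description of letters, not of a bound site, and the RM sequence was not used here. The part of the Ty2 element in the allelic ratios below was not tested.

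**Figure D1:**
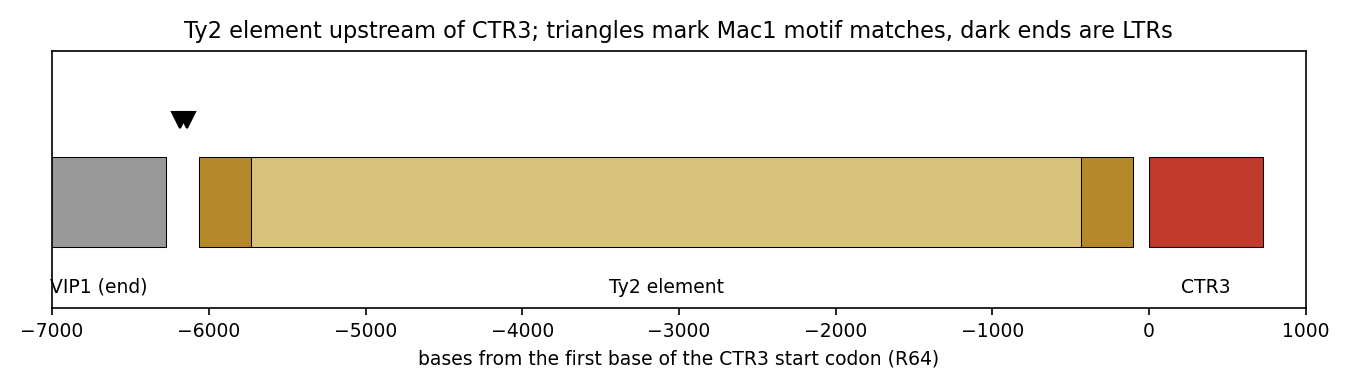
Map of the R64 reference upstream of CTR3, drawn to scale, with the distance in bases from the start codon on the x axis. The Ty2 element (tan, with its end repeats darker) fills the space between the end of VIP1 (grey) and CTR3 (red) except for 210 and 102 bases, and the 2 Mac1 motif matches (triangles) lie on its far side.

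CTR3, a high-affinity copper transporter of the plasma membrane, was read almost only from the RM allele in both kinds of culture. In the hybrid it had a lowest, median and highest count of 10, 15.5 and 25 RM reads per library, against 0, 0 and 2 BY reads (12 libraries). In the co-culture it had 13, 19.5 and 27 RM reads per library, against 0, 0 and 4 BY reads (12 libraries). Every library had more RM than BY reads and the alleles did not overlap. BY reads were seen in 5 of 12 hybrid libraries and in 4 of 12 co-culture libraries.

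Summed over libraries, CTR3 had 194 RM and 6 BY reads in the hybrid, an RM share of 97% (exact Clopper-Pearson 95% interval 93.6 to 98.9%, counting error only). In the co-culture it had 243 RM and 7 BY reads, an RM share of 97.2% (94.3 to 98.9%). The read ratio of RM to BY was therefore 32.3 in the hybrid (interval 14.6 to 89.2) and 34.7 in the co-culture (16.6 to 87.3). Both intervals are wide because the BY counts are small, and they overlap over most of their length. Library 12 of the co-culture, part of its summed library 5, held 4 of the 7 BY reads there. Without that summed library the co-culture ratio was 67.7 (interval 22.8 to 331), on 3 BY reads.

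The fitted RM-over-BY log2 ratio of CTR3 was 4.85 in the hybrid (SE 0.328, adjusted p = 6.73e-47, edgeR's quasi-likelihood test with Benjamini-Hochberg adjustment), from 148 ± 31.6 CPM for RM and 4.04 ± 3.74 for BY. RM was higher in 6 of 6 summed libraries. In the co-culture the log2 ratio was 4.78 (SE 0.306, adjusted p = 5.5e-53), from 191 ± 23.4 for RM and 7.15 ± 8.82 for BY, again with RM higher in 6 of 6. Leaving out 1 summed library at a time gave 4.39 to 5.63 in the co-culture, the highest without summed library 5. Among the 2661 gene pairs tested, CTR3 ranked 2nd toward RM in both kinds of culture. Only 2 gene pairs (0.0752%) had a log2 ratio above 4 in both kinds of culture, CTR3 and MET17. The latter is deleted in BY4741 and had no BY read.

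The difference between the CTR3 log2 ratios, hybrid minus co-culture, was 0.07 (SE 0.505, adjusted p = 0.959, edgeR). Its 95% interval ran from -0.92 to 1.06, so a change of up to about 1 log2 unit in either direction was not detectable at this depth. Without co-culture summed library 5 the difference was -0.78, again not called. The RM allele on its own had 145 ± 31.2 CPM in the hybrid, against 187 ± 22.4 in the co-culture, a log2 fold of -0.32 (SE 0.143, adjusted p = 0.0556). That value passed the threshold in 3 of the alternatives, without hybrid summed library 5 (adjusted p = 0.0426), hybrid summed library 6 (0.0436) or co-culture summed library 3 (0.0276). With the trend over the adenine share of the coding sequence removed, it was -0.06 (adjusted p = 0.765).

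The ratio of CTR3 was set beside those of other genes with a Ty element upstream. Within 1000 bases before their start codon and with no gene between, 10 measured gene pairs had 1 of the 50 full-length Ty elements annotated in R64, and 6 of these had enough reads for the allelic test. CTR3 and the inositol transporter gene ITR2 (log2 RM over BY 0.28 in the hybrid, adjusted p = 0.0283, edgeR) were higher from RM, and the mitochondrial porin gene POR1 was higher from BY (-0.75, adjusted p = 1.41e-08). The other 3, KEI1 (0.39), YDR209C (0.00) and CAB2 (-0.27), did not pass the threshold, so 3 of the 6 were called where 20.1% of all gene pairs tested were. The set was built around CTR3 after values were seen, so its place among the called genes was fixed in advance. No conclusion is drawn from that count. In the co-culture KEI1 (0.98, adjusted p = 9.56e-05) and ITR2 (0.21, adjusted p = 0.0493) were higher from RM and POR1 from BY (-0.36, adjusted p = 0.000107), where 40.3% of all were called. The Ty element of CTR3 is the nearest of the 10 to its gene, and the next lies 187 bases from YGR039W, which had too few reads to test.

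**Figure D2:**
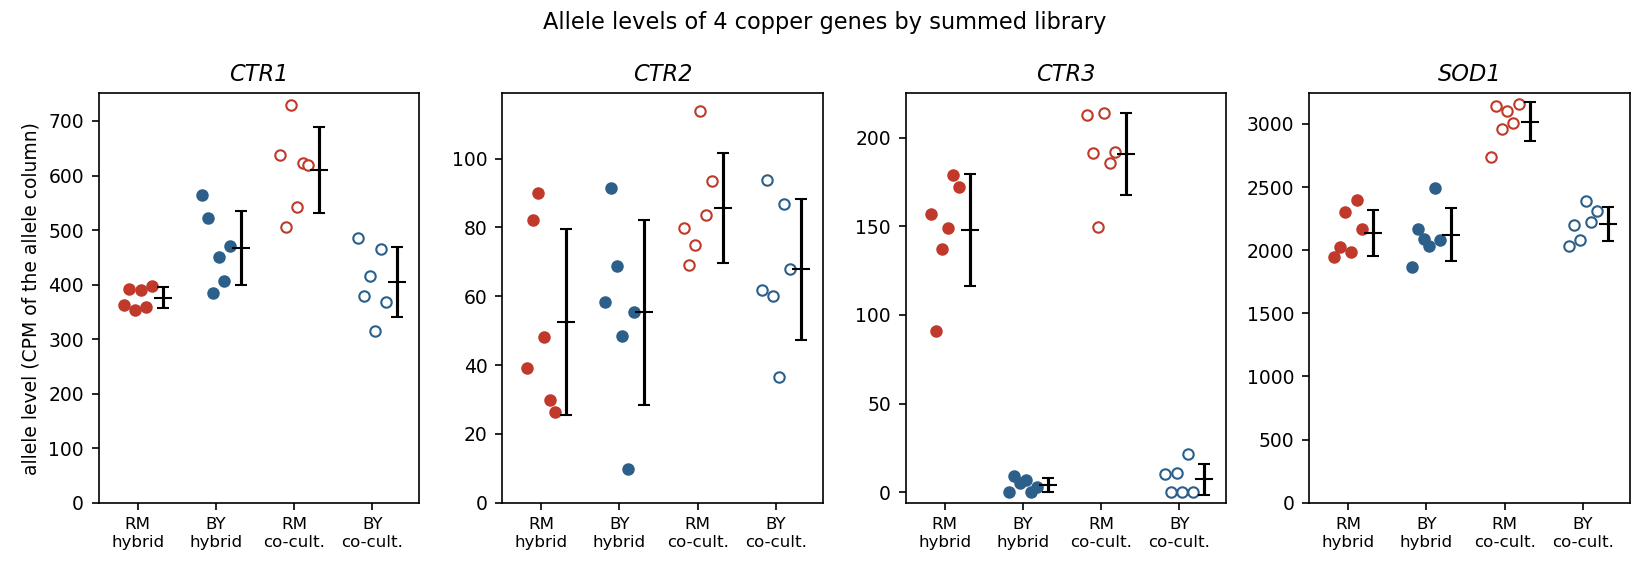
Allele levels in CPM of the allele column on the y axis, by summed library (points), with mean and SD (bars), for RM and BY in the hybrid (filled) and then in the co-culture (open). CTR3 was near 0 for BY in both, CTR1 and SOD1 were highest for RM in the co-culture, and the 4 columns of CTR2 overlapped.

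CTR1, the main high-affinity copper transporter, had opposite allelic ratios in the hybrid and the co-culture. In the hybrid it had a lowest, median and highest count of 31, 40.5 and 51 RM reads per library, against 36, 48 and 59 BY reads. In the co-culture it had 49, 61 and 85 RM reads per library, against 29, 35.5 and 47 BY reads. The RM and BY counts overlapped in the hybrid and did not overlap in the co-culture. Over all libraries the RM share was 45.5% in the hybrid (interval 42.5 to 48.5%) and 63.6% in the co-culture (60.8 to 66.4%).

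In the hybrid, CTR1 was lower from RM, at 376 ± 19.5 CPM, than from BY, at 467 ± 68.1, a log2 ratio of -0.26 (SE 0.0903, adjusted p = 0.0232, edgeR; RM higher in 0 of 6 summed libraries). The call was lost with DESeq2 (adjusted p = 0.136) and without hybrid summed library 1 (0.0737), 2 (0.0519), 4 (0.0539) or 6 (0.0501). In the co-culture, CTR1 was higher from RM, at 610 ± 78.8, than from BY, at 405 ± 63.97, a log2 ratio of 0.59 (SE 0.0868, adjusted p = 8.95e-11), with RM higher in 6 of 6 summed libraries.

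The CTR1 log2 ratio differed between the hybrid and the co-culture by -0.855 (SE 0.125, 95% interval -1.10 to -0.61, adjusted p = 2.53e-10, edgeR; hybrid minus co-culture). By summed library the log2 ratios lay between -0.64 and -0.12 in the hybrid and between 0.40 and 0.81 in the co-culture, so every value was below 0 in the hybrid and above 0 in the co-culture. This call held in all 20 alternatives run, which did not include removal of the adenine trend. Among the 2661 gene pairs tested, 37 (1.39%) had BY higher in the hybrid and RM higher in the co-culture with both called, CTR1 among them.

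The alleles of CTR1 were also set apart between the kinds of culture. The RM allele fell to 369 ± 18.7 CPM in the hybrid, against 598 ± 79.9 in the co-culture, a log2 fold of -0.65 (SE 0.0901, adjusted p = 4.73e-10, edgeR), and the groups did not overlap. The BY allele had 467 ± 67.8 CPM in the hybrid, against 406 ± 63.8 in the co-culture, a log2 fold of 0.21 (SE 0.0981, adjusted p = 0.0708), and the groups overlapped. The BY value passed the threshold in 7 of 20 alternatives, among them the fit of single libraries with the library number as a block (0.20, adjusted p = 0.0487).

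SOD1, the cytosolic copper and zinc superoxide dismutase, had an RM share near that of BY in the hybrid and more RM reads in the co-culture. In the hybrid it had a lowest, median and highest count of 199, 223 and 275 RM reads per library, against 173, 224 and 265 BY reads. In the co-culture it had 309, 325 and 354 RM reads, against 181, 202 and 248 BY reads. The alleles overlapped in the hybrid and did not in the co-culture. The RM share was 50.3% in the hybrid (interval 48.9 to 51.6%) and 61.4% in the co-culture (60.2 to 62.6%).

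The fitted log2 ratio of SOD1 was 0.02 in the hybrid (SE 0.0403, 95% interval -0.06 to 0.10, adjusted p = 0.848, edgeR), from 2137 ± 183 CPM for RM and 2124 ± 208 for BY. In the co-culture it was 0.46 (SE 0.0376, adjusted p = 1.19e-32), from 3018 ± 157 for RM and 2206 ± 136 for BY, with RM higher in 6 of 6 summed libraries. The difference, hybrid minus co-culture, was -0.44 (SE 0.0552, adjusted p = 4.17e-14), and the ratios by summed library lay between -0.10 and 0.14 in the hybrid and between 0.38 and 0.52 in the co-culture. The difference held in all 20 alternatives run, again without removal of the adenine trend among them. Of the gene pairs tested, 382 (14.4%) shared the pattern of a called excess of RM in the co-culture and no call in the hybrid.

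The RM allele of SOD1 was lower in the hybrid, at 2099 ± 183 CPM, than in the co-culture, at 2960 ± 145, a log2 fold of -0.51 (SE 0.0501, adjusted p = 7.53e-17, edgeR), and the groups did not overlap. The BY allele had 2124 ± 209 in the hybrid, against 2213 ± 137 in the co-culture, a log2 fold of -0.08 (SE 0.0547, adjusted p = 0.217). These allele levels moved with the share of adenine in the coding sequence, which was 24.9% in SOD1 against a median of 32.6% over the gene pairs tested. With each summed library's trend over that share removed, the RM allele was at 0.04 (adjusted p = 0.585) and the BY allele at 0.33 (adjusted p = 2.4e-07), whereas the RM allele of CTR1 stayed lower in the hybrid (-0.50, adjusted p = 1.32e-06).

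**Figure D3:**
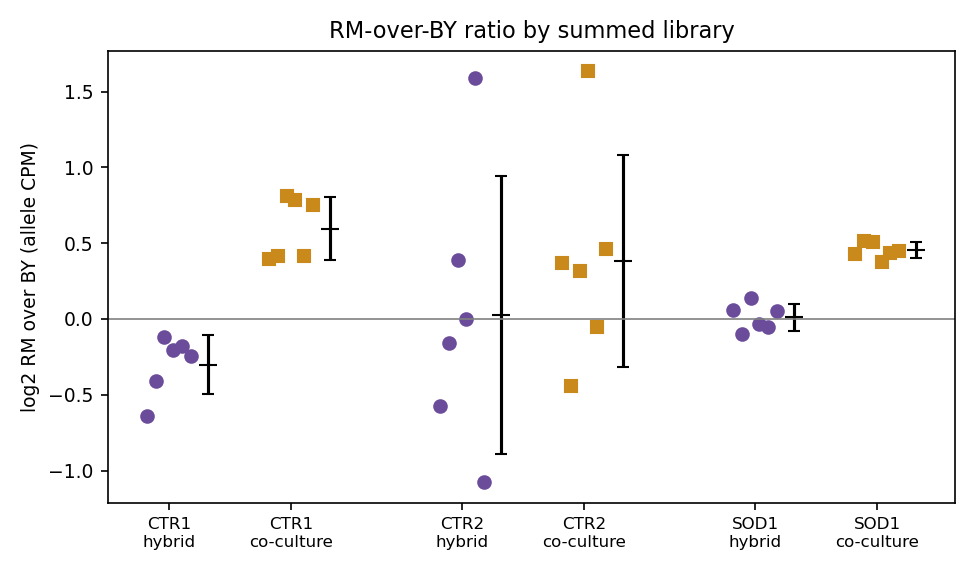
Log2 ratio of RM over BY by summed library (points) with mean and SD (bars), for the hybrid (circles) left of the co-culture (squares). CTR1 lay between -0.64 and -0.12 in the hybrid and between 0.40 and 0.81 in the co-culture, SOD1 was near 0 in the hybrid, and CTR2 overlapped.

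CTR2, the transporter of the vacuole membrane, showed no called allelic difference. In the hybrid it had a lowest, median and highest count of 2, 4 and 9 RM reads per library, against 1, 6.5 and 10 BY reads. In the co-culture it had 2, 9 and 13 RM reads, against 2, 7 and 11 BY reads, and all 4 sets of counts overlapped. The log2 ratio was -0.15 in the hybrid (95% interval -0.64 to 0.34, adjusted p = 0.75, edgeR) and 0.27 in the co-culture (-0.15 to 0.69, adjusted p = 0.334). Their difference was -0.42 (-1.07 to 0.23, adjusted p = 0.411), so a difference of the size seen in SOD1 was not detectable for CTR2 at this depth.

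The RM allele of CTR2 fell to 51.7 ± 26.6 CPM in the hybrid, against 84.1 ± 15.5 in the co-culture, a log2 fold of -0.77 (SE 0.234, adjusted p = 0.0035, edgeR). The call was lost without hybrid summed library 6 (-0.53, adjusted p = 0.0633) and with the adenine trend removed (-0.46, adjusted p = 0.112). The BY allele gave a log2 fold of -0.36 (SE 0.25, adjusted p = 0.227), from 55.4 ± 26.8 in the hybrid, against 68.1 ± 20.8 in the co-culture.

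CUP2 and CCC2 were close to the limit of detection. CUP2 had 5 RM and 8 BY reads over the 12 hybrid libraries, an RM share of 38.5% (interval 13.9 to 68.4%), and 4 RM and 14 BY reads over the 12 co-culture libraries, a share of 22.2% (6.41 to 47.6%). CCC2 had 1 RM and 4 BY reads in the hybrid, a share of 20% (0.505 to 71.6%), and 7 RM and 2 BY reads in the co-culture, a share of 77.8% (40.0 to 97.2%). Both fell below the read minimums. With the minimums removed, the log2 fold of the summed alleles, hybrid over co-culture, was -0.53 for CUP2 (SE 0.527, adjusted p = 0.441, edgeR) and -0.84 for CCC2 (SE 0.763, adjusted p = 0.398).

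Over the members, 2 of the 4 tested were called for the RM-over-BY ratio in the hybrid, where 20.1% of all gene pairs tested were called, 10.4% with RM and 9.7% with BY higher: CTR3 was higher from RM and CTR1 from BY. In the co-culture 3 of 4 were higher from RM (CTR3, CTR1 and SOD1) and 0 from BY, where 40.3% of all were called, 21.8% with RM higher. The ratio differed between hybrid and co-culture for 2 of 4 (CTR1 and SOD1, both lower in the hybrid), where 20.7% of all were called, 12% lower and 8.76% higher in the hybrid. The median log2 ratio of the 4 was -0.07 in the hybrid, against 0.53 in the co-culture, against 0 in the hybrid, against 0.01 in the co-culture over all gene pairs tested. For single alleles, 3 of 4 members were lower in the hybrid from RM, where 49.3% of all were called and 25.5% were lower, and 0 of 3 were called from BY, where 53% of all were called, 27.1% lower and 25.9% higher. The BY allele of CTR3 was below the minimum for that comparison.

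With both alleles summed, all 4 tested members (CTR1, CTR2, CTR3 and SOD1) were lower in the hybrid, where 61.3% of the 2793 gene pairs tested were called and 31.9% were lower. CTR1 had 417 ± 36.0 CPM in the hybrid, against 511 ± 64.2 in the co-culture, a log2 fold of -0.27 (SE 0.0713, adjusted p = 0.000822, edgeR). CTR3 had 75.2 ± 14.4 in the hybrid, against 105 ± 11.6 in the co-culture, a log2 fold of -0.42 (SE 0.142, adjusted p = 0.00825). The log2 fold was -0.58 for CTR2 (SE 0.177, adjusted p = 0.00362) and -0.32 for SOD1 (SE 0.0456, adjusted p = 4.19e-09), and the groups overlapped for all 4 genes.

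These 4 calls also moved with the adenine share of the coding sequence, which was 29.1 to 31.0% in the CTR genes. With that trend removed, CTR1 was at -0.10 (adjusted p = 0.229, edgeR), CTR2 at -0.25 (adjusted p = 0.235) and CTR3 at -0.15 (adjusted p = 0.383). SOD1 was then higher in the hybrid (0.20, adjusted p = 3.27e-05). The direction of the summed level of SOD1 therefore differed between these settings.

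**Figure D4:**
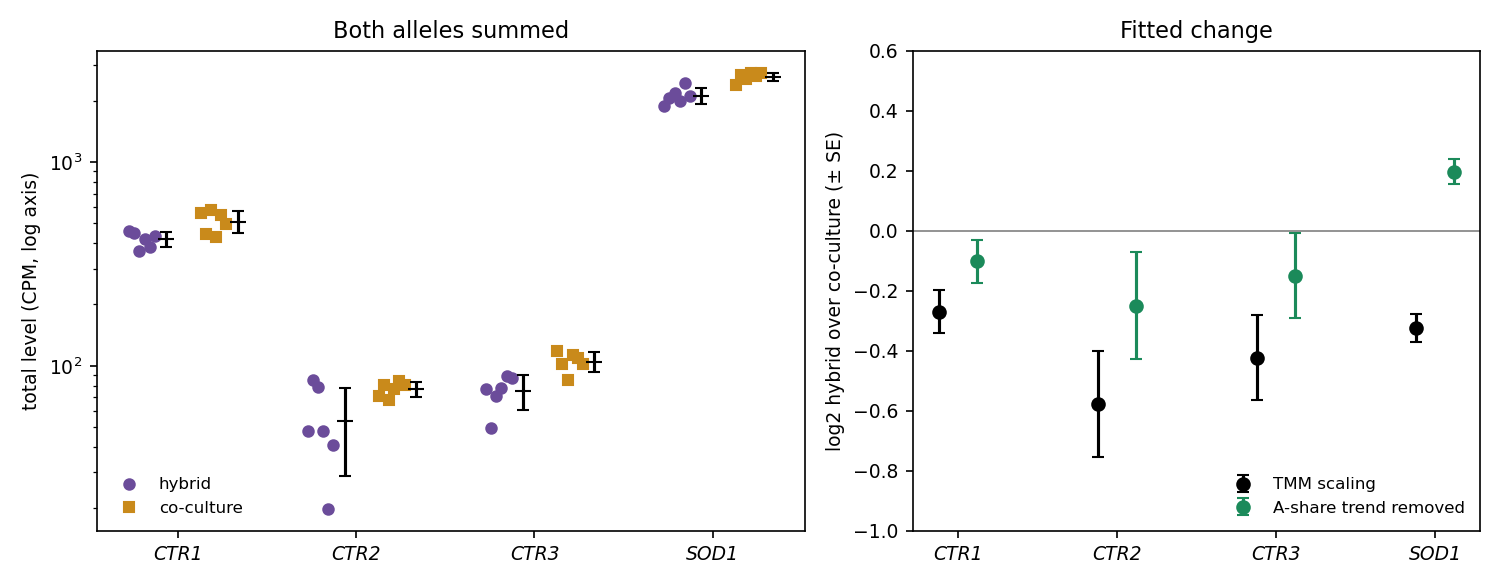
Left, level of both alleles summed in CPM (log axis) by summed library, with mean and SD, for the hybrid (circles) left of the co-culture (squares). Right, log2 fold of hybrid over co-culture with SE, under TMM scaling (black) and with the trend over the adenine share removed (green): all 4 genes lie below 0 in black, and in green CTR1, CTR2 and CTR3 lie at -0.10 to -0.25 and SOD1 at 0.20.

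The other genes of copper biology were taken from lists of Mac1 targets, Cup2 targets and the secretory, mitochondrial and cytosolic copper routes, 25 genes of which 18 were measured. With alleles summed, 1 of the 12 tested was higher in the hybrid, 6 were lower and 5 did not pass, where 29.4% of all gene pairs tested were higher and 31.9% lower, with a median log2 fold of -0.28 against 0.01 over all gene pairs. All 5 measured Mac1 targets, CTR1, CTR3, FRE1, FRE7 and IRC7, were lower in the hybrid, set against the same 31.9%. Among them the surface reductase FRE1 had 1178 ± 33.1 CPM in the hybrid, against 1898 ± 104 in the co-culture (-0.68, adjusted p = 1.23e-21, edgeR), and FRE7 had 80.3 ± 13.5 in the hybrid, against 169 ± 26.2 in the co-culture (-1.04, adjusted p = 5.04e-11). FRE1 (-0.46) and FRE7 (-0.68) stayed lower with the adenine trend removed, but the beta-lyase gene IRC7 lost its call (-0.06), as CTR1 and CTR3 did. The RM allele of CTR3 on its own was not called (-0.32, adjusted p = 0.0556, edgeR).

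Of the secretory route, the iron oxidase FET3 was lower in the hybrid, with 438 ± 40.0 CPM against 1344 ± 50.1 in the co-culture (-1.62, adjusted p = 2.57e-38, edgeR). The gene that was higher in the hybrid was SLF1, which encodes an RNA-binding protein with a role in copper mineralization, at 256 ± 27.9 in the hybrid, against 188 ± 22.8 in the co-culture (0.40, adjusted p = 0.000162). SLF1 turned to -0.62 (adjusted p = 4.44e-08) with the adenine trend removed. The 3 mitochondrial route genes tested, the copper chaperone gene SCO1 (0.10), CMC1 (-0.08) and MRS3 (0.09), did not pass. With the adenine trend removed all 3 passed, SCO1 (0.46, adjusted p = 0.0256) and MRS3 (0.28, adjusted p = 0.0303) higher and CMC1 lower (-0.89, adjusted p = 5.33e-05) in the hybrid.

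In the hybrid, 2 of the 12 other copper genes were higher from RM, 4 from BY and 6 did not pass, where 10.4% of all gene pairs tested were higher from RM and 9.7% from BY. The vacuolar oxidase FET5 (log2 RM over BY 0.40, adjusted p = 0.00062, edgeR) and SLF1 (0.36, adjusted p = 0.015) were higher from RM. The SLF1 call was lost with DESeq2 (adjusted p = 0.31) and without hybrid summed library 4 (0.24, adjusted p = 0.304) or 6 (0.31, adjusted p = 0.126). FET4, a low-affinity metal ion transporter, had 164 ± 47.7 CPM from RM and 373 ± 49.2 from BY (-1.21, adjusted p = 4.01e-22). FRE7 (-0.89, adjusted p = 0.000165) and FET3 (-0.66, adjusted p = 3.95e-12) were also higher from BY.

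In the co-culture, 5 of the 12 were higher from RM, 4 from BY and 3 did not pass, where 21.8% of all gene pairs tested were higher from RM and 18.5% from BY. The iron permease FTR1 had 885 ± 71.5 CPM from RM and 535 ± 55.9 from BY (0.74, adjusted p = 1.79e-22, edgeR), FRE1 was at 0.68 (adjusted p = 5.97e-48) and the mitochondrial carrier MRS3 at 0.46 (adjusted p = 0.0152). FET4 had 72.2 ± 25.5 from RM and 421 ± 43.2 from BY (-2.52, adjusted p = 1.55e-68), FRE7 was at -1.14 (adjusted p = 1.59e-13) and IRC7 at -0.37 (adjusted p = 0.0111). Of these calls, that of MRS3 was lost with DESeq2 (adjusted p = 0.168) and without co-culture summed library 2 (0.25, adjusted p = 0.324), 3 (0.0614) or 5 (0.0538). That of IRC7 was lost with 1 factor per library (-0.16, adjusted p = 0.311), with DESeq2 (0.0795) and without co-culture summed library 2 (0.105). The remaining calls toward RM, SLF1 (0.35) and FET5 (0.26), were lost in 9 and in 4 of 20 alternatives.

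The ratio was higher in the hybrid for 1 of the 12, FET4 (1.31, SE 0.201, adjusted p = 2.05e-09, edgeR; hybrid minus co-culture), and lower for FRE1 (-0.75, adjusted p = 3.25e-24), FTR1 (-0.72, adjusted p = 2.39e-09) and FET3 (-0.30, adjusted p = 0.0215), where 8.76% of all gene pairs tested were higher and 12% lower. The FET3 call was lost with column totals in place of TMM (adjusted p = 0.137), with DESeq2 (0.161) and without hybrid summed library 4 (0.193) or co-culture summed library 5 (0.0684). FRE1 averaged a log2 ratio of -0.07 in the hybrid, against 0.70 in the co-culture, and FTR1 0.04 in the hybrid, against 0.73 in the co-culture. The other 8 did not pass, and the median of the 12 was -0.17 against -0.01 over all gene pairs. Of the Mac1 targets, CTR1 and FRE1 had a called change of ratio, and CTR3, FRE7 and IRC7 did not pass. IRC7 (0.46, adjusted p = 0.0701) passed in 5 of 20 alternatives, among them column totals (0.55, adjusted p = 0.0216).

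**Figure D5:**
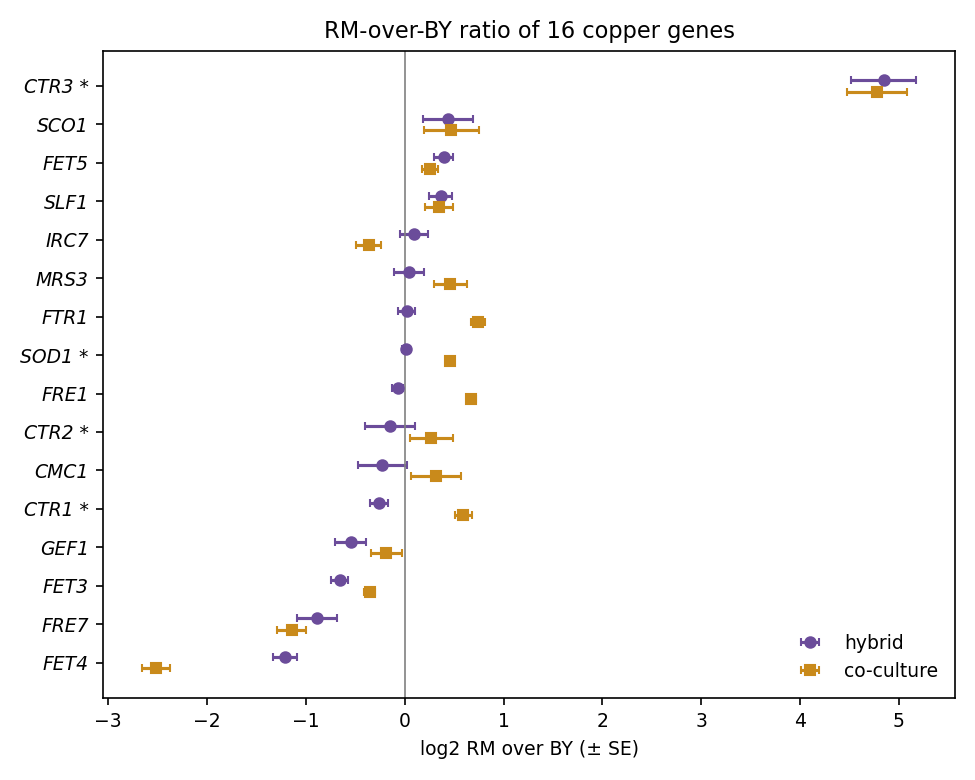
Fitted log2 ratio of RM over BY with SE on the x axis for the 16 copper genes with enough reads, hybrid (circles) above co-culture (squares), with members marked by a star. CTR3 stands near 4.8 in both, CTR1 lies below 0 in the hybrid and above 0 in the co-culture, and FET4 lies lowest.

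The gene pairs most like CTR1 over the 24 allele columns were the phosphomannomutase gene SEC53 (Pearson r = 0.826 across log2 levels), the drug pump gene SNQ2 (0.782) and the fatty acid desaturase gene OLE1 (0.772), among 2660 candidates. OLE1 averaged 1892 CPM from RM and 4238 from BY in the hybrid, and 4631 from RM and 2098 from BY in the co-culture, the order that CTR1 had. The gene pairs most like CTR3 were YIR042C (0.927), MET17 (0.914) and the S-adenosylmethionine synthetase gene SAM1 (0.899), which had more RM than BY reads in both kinds of culture. The columns share libraries and their depth, so these correlations are descriptions. A shared order of alleles largely follows from picking genes by them.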

How the data were processed

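The deposited files hold raw counts of reads per gene pair and library, separately for the BY and the RM allele, with no normalisation, per the file headers. Which aligner, build or filters were used is not given in the sources used here. Per the labels' protocols, polyadenylated RNA from a hot acid phenol extraction was reverse transcribed with an oligo-dT primer. The members and gene lists were chosen with earlier results of these data known.

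Libraries of a group that agree within sampling noise (chi-square over allele counts with at least 20 reads in the pair, p of at least 0.05) were summed by complete linkage. In the hybrid these were libraries 1, 2, 3 with 5, 4 with 6, 7 and 8, 9, and 10 with 11 and 12. In the co-culture they were libraries 1, 2 with 3 and 4, 5 with 6, 7 with 8, 9 with 12, and 10 with 11. They are called summed libraries 1 to 6 in this order.

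Counts were tested in edgeR 4.0.16 under R 4.3.3, by its quasi-likelihood test on TMM-scaled libraries, with Benjamini-Hochberg adjustment over all gene pairs tested and a threshold of 0.05. Summed alleles needed a mean of 10 reads per library in at least 1 group, single alleles a mean of 5, and allelic ratios 100 reads over both alleles in each group. Allelic ratios came from 1 joint fit with the summed library as a block. The SE is the log2 fold divided by the square root of F. Ratio changes are hybrid minus co-culture. The scripts were tested on simulated data. DESeq2 1.42.0, other scalings and filters, leaving out each summed library, and removing a loess trend over the adenine share of the coding sequence were alternatives. The last was planned for summed alleles and added for single alleles after seeing the data.

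Named besides the members were, in each comparison of summed alleles or ratios, up to 3 other copper genes in each direction with the largest called log2 fold, and the 3 gene pairs most correlated with CTR1 and with CTR3. The genes with an upstream Ty element were chosen after values were seen. Of the gene pairs, 4325 matched an R64 locus tag.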

Additional observations from a re-analysis of the deposited data

Results flagged for a closer look

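The RM-over-BY log2 ratio of CTR1 differed between the hybrid and the co-culture by -0.855 (hybrid minus co-culture, 6 summed libraries each), by a test of the difference itself. That of SOD1 differed by -0.443 by the same test. For both genes the ratios by summed library did not overlap between the hybrid and the co-culture. How many of all gene pairs lacked such overlap was not counted, and 20.7% of those tested had a called change of ratio. Ploidy, mating type and the RM strain differ between the groups in the same way, and their part in either difference cannot be told apart from that of shared cells. No group of summed libraries held a member with 1 library far from the others, among 14 groups checked, of which chance would flag about 1 in 20. These covered the summed levels of CTR1, CTR2, CTR3 and SOD1 and the ratios of CTR1, CTR2 and SOD1. The CTR3 ratio could not be checked, since some summed libraries had no BY read, and CUP2 and CCC2 were not checked.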

How the results depend on the processing

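Over the 6 comparisons, the members gave 23 results, which were recomputed 457 times over their alternatives. Of these, 434 left the call as it was, 10 ended a call and 10 gained one. The other 3 turned the direction of a value that was called before or after. A change of sign between uncalled values counts among the 434, such as that of the CTR3 ratio change (0.067, and -0.78 at the lowest). All 3 turns of called values were SOD1 with the adenine trend removed (0.197 for summed alleles, 0.326 for BY and 0.036 for RM). The same setting turned FTR1 (0.011 for summed alleles, 0.307 for BY) and SLF1 (-0.616 for summed alleles, -0.555 for BY, -0.583 for RM). The count of called allelic ratios in the hybrid was 534 gene pairs, 276 with DESeq2 and 355 to 537 with a summed library left out, where hybrid summed library 4, the sum of 4 libraries, gave the lowest. The count of ratio changes was 552, and 303 with DESeq2. The cause of these differences was not tested. With a summed library left out, the counts were 1569 to 1716 for summed alleles, 1337 to 1469 for BY, 1253 to 1374 for RM, 875 to 1065 for ratios in the co-culture and 446 to 531 for ratio changes.

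Scaling moved the split of calls. With library totals in place of TMM, 1071 gene pairs were higher and 692 lower in the hybrid for summed alleles (821 and 890 with TMM), and 978 and 540 for RM (669 and 718). In the co-culture RM was higher in 469 and BY in 622 with library totals, and in 1024 and 224 with 1 factor per library (579 and 493 with TMM). Ratio changes were higher in the hybrid for 354 and lower for 227 with library totals, and for 89 and 671 with 1 factor per library (233 and 319 with TMM).

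Library numbers did not pair the groups: the 12 same-numbered pairs correlated at -0.028 to 0.0631 in their deviations from the group means, and 1 hybrid library correlated best with its own number. With the numbers as a replicate block over the 24 single libraries, 1777 gene pairs were called for summed alleles, 1506 for BY and 1433 for RM. Without the replicate block of summed libraries, 455 ratios in the hybrid, 1025 in the co-culture and 465 ratio changes were called. Depth limits CUP2, CCC2 and the BY allele of CTR3 most, at no more than 14 reads per allele and group.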

Other observations

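The gene pairs whose allele levels were most like those of CTR1 had the same order of alleles in the co-culture. They were picked by that likeness over these same columns, so a shared order largely follows from the choice. SEC53 averaged 2967 CPM from RM and 3095 from BY in the hybrid, and 4446 from RM and 2946 from BY in the co-culture. SNQ2 averaged 269 CPM from RM and 328 from BY in the hybrid, and 425 from RM and 263 from BY in the co-culture.

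Among gene pairs with an upstream Ty element too shallow for the allelic test, NDJ1, a meiotic telomere protein gene, had 6 RM and 12 BY reads in the hybrid, against 10 RM and 124 BY reads in the co-culture. The Ty2 element before YGR039W lies 187 bases from its start codon, and that gene had 4 RM and 13 BY reads in the hybrid and 5 RM and 4 BY reads in the co-culture. No test was run on either.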
